A study of Mus musculus with 23 samples.

Results

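A set of 8 transcriptional regulators that are known for the step between resting and effector regulatory T cells (Treg) were followed across the 23 arrays of the series. They are Prdm1 (which encodes Blimp-1), Bach2, Irf4, Batf, Id2, Id3, Bhlhe40 and Gfi1. Members were taken by gene symbol: every probe set that the array annotation assigns to one of the 8 symbols was used, 13 of the 45101 probe sets on the array. Bach2 and Id2 have 3 probe sets each, Irf4 has 2 and the others have 1. Where a gene had several, the brightest on average stood for it in the tests. All 8 genes passed the brightness filter and were among the 12516 genes tested, of 18193 genes named on the array.

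The RNA came from mouse CD4+ T cells sorted as CD3+ and free of B220, CD8a and CD11b/c, in 9 groups. All animals were labelled male and 6 to 10 weeks old, and each array held a pool of several mice. From the small-intestinal lamina propria (LP) of C57BL/6-Foxp3/GFP mice, in which a green fluorescent protein reports Foxp3, came GFP+ cells (LP Treg, 2 arrays) and GFP- cells (LP Tconv, 2 arrays). In the homeostatic system, GFP- CD4+ cells of BDC2.5/NOD mice with the reporter, which carry a transgenic T cell receptor, were transferred into NOD RAG-/- hosts, which lack lymphocytes with rearranged receptors. GFP+ (homeostatic Foxp3+, 3 arrays) and GFP- cells (homeostatic Foxp3-, 3 arrays) were sorted from spleen and lymph nodes 14 days later. In the DEC system, CD25- cells of HA6.5/Thy1.2/RAG-/-/Balb/c mice, again with a transgenic receptor, went into Balb/c hosts given DEC-HA peptide at 50 ng per mouse, an antigen aimed at dendritic cells. CD25+ (DEC CD25+, 3 arrays) and CD25- donor cells (DEC CD25-, 4 arrays) were sorted 3 weeks later. This pair was sorted on CD25 and not on a Foxp3 reporter. From peripheral lymph nodes (LN) of C57BL/6-Foxp3/GFP mice, GFP+ Treg were split by the surface proteins CD103 and Klrg1 into CD103+Klrg1+, CD103+Klrg1- and CD103-Klrg1- cells, with 2 arrays each.

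Treg circulate through lymphoid organs as resting cells and, after antigen contact, can take on an effector state with homing receptors and suppressive molecules. Blimp-1 is a zinc finger repressor that marks this effector state in Treg and the plasma cell state in B cells, and Bach2 is a basic leucine zipper repressor that holds back effector programs, Prdm1 among them. Irf4 and Batf are induced by antigen receptor signals and bind DNA together at composite elements. Id2 and Id3 are small helix-loop-helix proteins without a DNA-binding region that sequester E proteins, and in CD8 T cells high Id3 goes with memory precursors and high Id2 with effector cells. Bhlhe40 is a basic helix-loop-helix repressor that follows activation and limits Il10 in helper T cells. Gfi1 is a zinc finger repressor active in lymphocyte and myeloid development.

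Levels are given as log2 of the deposited array intensity. The filter lay at 6.27 on this scale, the median of all values in the table. Differences between groups are log2 differences with standard errors from 1 limma model over all 23 arrays. A gene was called where its p, adjusted by Benjamini and Hochberg over the 12516 genes, was under 0.05. With 2 to 4 pools per group, these p-values measure the spread between pools of mice and not between single mice. In sorted bulk RNA, fewer cells of a kind and less RNA per cell cannot be told apart.

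The 7 CD4 T cell markers on the array lay above the filter in each of the 9 groups. Foxp3 ran from 10.08 to 11.50 on the arrays of Treg and of converted cells, against 4.57 to 4.81 on the LP Tconv and homeostatic Foxp3- arrays. On the DEC CD25- arrays, from cells sorted on CD25, it lay between 6.92 and 8.48. These values were above the filter and above the LP Tconv and homeostatic Foxp3- arrays. The DEC CD25- replicates 3 and 4 stood apart from the rest, with the lowest correlations with their own group, 0.884 and 0.909. They also had the lowest array medians, 68.5 and 63.7 intensity units. As a check of RNA quality, 3' minus 5' Gapdh signal in log2 was 6.59 on replicate 3. It was 2.79 on replicate 4 and 1.63 to 3.92 on all arrays but replicate 3. The 7 DEC arrays, labelled male, had Xist between 11.85 and 13.25, against 6.47 to 7.67 on the other 16 arrays.

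Of the 8 regulators, 7 varied among the 9 groups by limma's F test, where 46.4% of all genes tested did. The exception was Irf4, with an adjusted p of 0.221. The adjusted p of the others ran from 1.07e-07 for Prdm1 to 0.0097 for Batf.

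**Figure D1:**
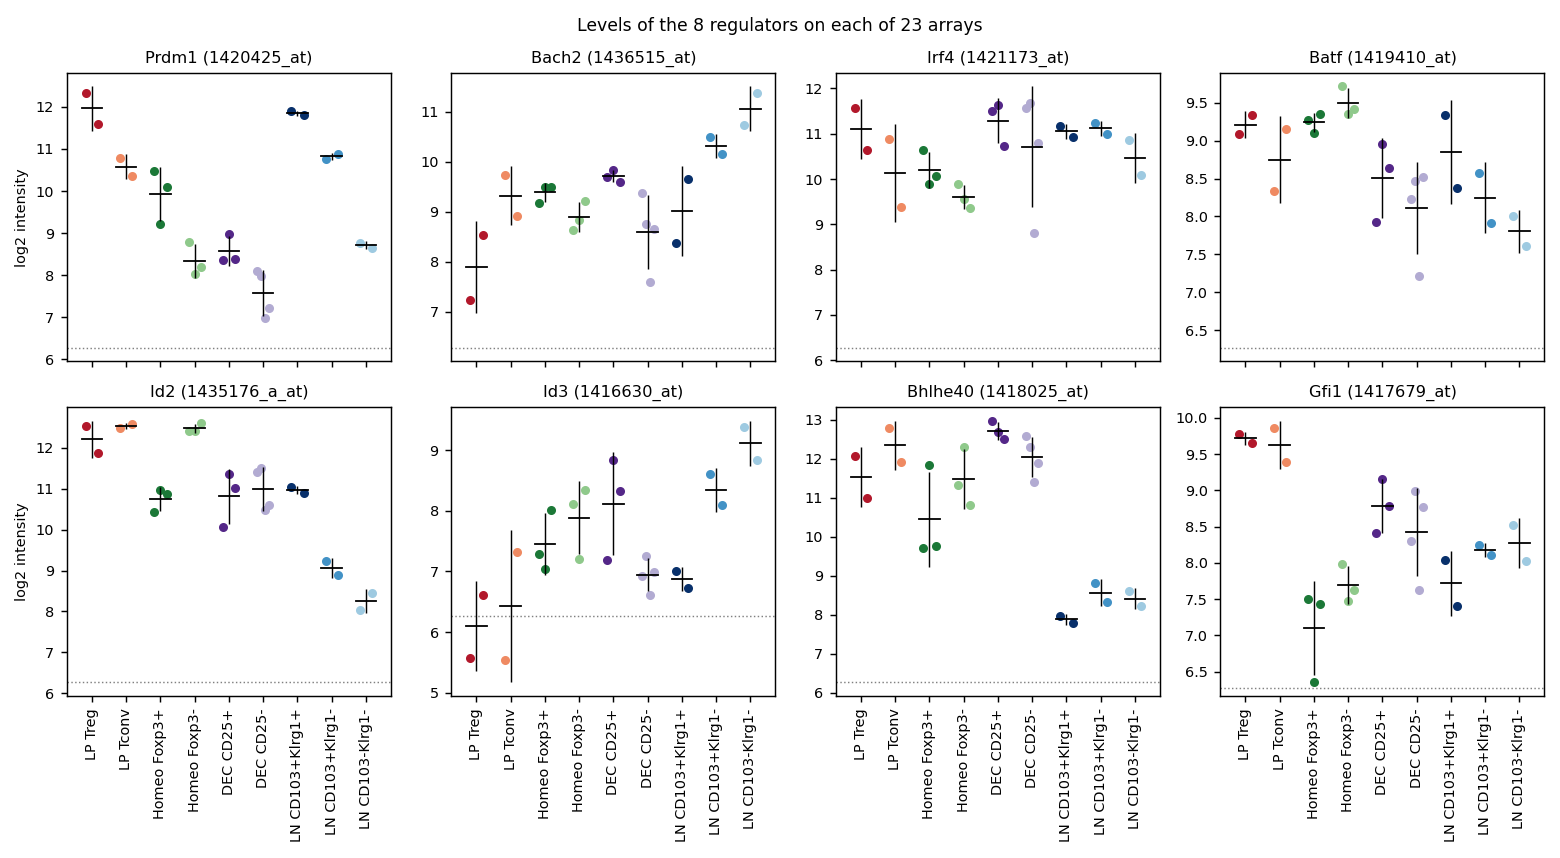
Levels of the 8 regulators in log2 intensity (vertical axes) on each of the 23 arrays. Points are arrays, horizontal bars group means, vertical bars SD, and dotted lines the filter at 6.27. Prdm1 is high on LP Treg and LN CD103+Klrg1+ arrays, Bach2 and Id3 are high on LN CD103-Klrg1- arrays, and Bhlhe40 is low on the 6 lymph node arrays.

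Prdm1 and Bach2 are shown first because their levels mark the ends of the lymph node split. Their promoters, from RefSeq on GRCm38.p6, cover 300 bases, of which the last 50 follow the annotated start, and are printed in the direction of transcription. Prdm1 starts on the minus strand within chr10:44458699-44458998, and Bach2 on the plus strand within chr4:32417185-32417484. Capitals mark motif matches found on either strand, with positions counted from 0 at the first transcribed base. The motifs searched were the AP-1 element TGANTCA, the E-box CANNTG and its palindromic form CACGTG, and the Blimp-1 core AGNGAAAG. The palindromic form is contained in the E-box.
Prdm1: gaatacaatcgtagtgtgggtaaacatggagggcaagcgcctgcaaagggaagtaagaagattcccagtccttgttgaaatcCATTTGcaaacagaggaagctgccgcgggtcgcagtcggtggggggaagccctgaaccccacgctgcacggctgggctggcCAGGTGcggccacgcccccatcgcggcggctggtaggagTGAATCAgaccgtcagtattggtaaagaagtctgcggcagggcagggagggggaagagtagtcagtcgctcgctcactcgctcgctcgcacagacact
Bach2: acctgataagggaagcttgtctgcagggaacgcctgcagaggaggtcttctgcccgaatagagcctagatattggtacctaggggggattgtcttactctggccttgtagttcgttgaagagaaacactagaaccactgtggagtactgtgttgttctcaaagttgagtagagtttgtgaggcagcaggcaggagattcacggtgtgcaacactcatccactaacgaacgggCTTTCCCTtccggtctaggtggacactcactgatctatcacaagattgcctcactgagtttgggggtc

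The Prdm1 window held an AP-1 element at -48 to -42, a motif found in 7.81% of 32851 promoters of this length. It also held E-boxes at -168 to -163 and -87 to -82, a motif of 72.3% of promoters. In the Bach2 window, the capitals at -18 to -11 match the searched letters AGNGAAAG on the opposite strand, with G at the open position N. A match to these letters is held by 8.63% of promoters. These matches are letters in a window, and binding was not measured here.

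Prdm1 stepped up across the lymph node subsets with the surface markers that defined them. Prdm1 read 11.89 and 11.80 on the CD103+Klrg1+ arrays and 10.76 and 10.89 on the CD103+Klrg1- arrays, against 8.78 and 8.65 on the CD103-Klrg1- arrays. The 3 subsets did not overlap. CD103+Klrg1+ cells had a difference of 3.13 ± 0.41 (SE) over CD103-Klrg1- cells, or 8.77-fold, with an adjusted p of 0.000136 by limma. In this comparison 4 of the 8 regulators were called, where 2.1% of all genes tested were. The call held in all 11 other settings and with each array left out in turn, with adjusted p up to 0.00414 in the latter fits. CD103+Klrg1- cells had 2.11 ± 0.41 over CD103-Klrg1- cells, with an adjusted p of 0.0588, and so were not called. None of the 8 regulators was called by limma in that comparison, against 0.0959% of all genes, while 2 had an unadjusted p under 0.05 and 0 were called by ordinary least squares. The Prdm1 difference was called under 8 of the 11 other settings, with adjusted p from 0.000605 to 0.0494. It was also called when homeostatic Foxp3+ replicate 1 or 2, or DEC CD25- replicate 1 or 3, was left out, with adjusted p of 0.0441, 0.0286, 0.0478 and 0.0299. The step from CD103+Klrg1- to CD103+Klrg1+ was 1.02 ± 0.41, with an adjusted p of 0.872.

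LP Treg lay beside the CD103+Klrg1+ lymph node cells at the top of the Prdm1 range. Their arrays read 12.33 and 11.59, and these values span those of the CD103+Klrg1+ arrays. The difference between the 2 groups was 0.12 ± 0.41, with an adjusted p of 0.962. Against CD103-Klrg1- cells, LP Treg were higher by 3.25 ± 0.41, or 9.51-fold, with an adjusted p of 8.61e-05. In that comparison 5 of the 8 regulators were called, against 4.55% of all genes tested. Prdm1 kept its call there in all 11 other settings and in the 23 fits that left out 1 array. Against CD103+Klrg1- cells the difference was 1.14 ± 0.41, with an adjusted p of 0.199. The plasma cell gene Jchain, whose product joins secreted antibodies, averaged 10.44 ± 0.66 on the LP Treg arrays (SD, n = 2), against 6.43 ± 0.17 on the CD103-Klrg1- arrays (SD, n = 2). Of the 11 B cell and plasma cell markers on the array, 6 averaged above the filter in LP Treg and 8 in CD103-Klrg1- cells. The log2 of their summed intensity ran from 10.96 to 11.48 in LP Treg, against 10.89 to 10.98 in CD103-Klrg1- cells. The plasma cell receptor gene Tnfrsf17 lay below the filter in each of the 9 groups. Other plasma cell markers did not follow Jchain. Sdc1, Derl3 and Mzb1 averaged 7.60, 6.79 and 6.93 in LP Treg, against 7.46, 6.50 and 7.28 in CD103-Klrg1- cells. In LP Tconv, Jchain averaged 9.46 ± 0.79 (SD, n = 2). In CD103+Klrg1+ cells, where Prdm1 averaged 11.84 ± 0.07 (SD, n = 2), Jchain averaged 6.45 ± 0.05 (SD, n = 2). The log2 of the summed marker intensity ran from 11.19 to 11.81 in these cells, with 8 of the 11 above the filter. The B cell genes Ms4a1 and Cd79b averaged 10.36 ± 0.74 and 9.10 ± 0.04 there (SD, n = 2). The part of B cell and plasma cell RNA in the LP and CD103+Klrg1+ values was not tested.

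Within each system, the Treg or converted group had more Prdm1 than its partner on every array. LP Treg differed from LP Tconv, whose arrays read 10.79 and 10.36, by 1.38 ± 0.41 with an adjusted p of 0.101. None of the 8 regulators was called by limma in that comparison, where 2.7% of all genes were. An unadjusted p under 0.05 was found for 2 of them, and ordinary least squares called 0. The LP Prdm1 difference was called under 4 of the 11 other settings. The smallest adjusted p, 0.00861, came from the block by replicate number. In residuals from group means, LP arrays of the same number correlated at -0.07, so that pairing has no support in these data. Without the block the smallest was 0.0173, with cyclic loess normalization. Homeostatic Foxp3+ arrays read 10.48, 9.22 and 10.10, against 8.80, 8.04 and 8.20 on the homeostatic Foxp3- arrays. The difference of 1.59 ± 0.34, or 3.00-fold, was called with an adjusted p of 0.0156. In that comparison 2 of the 8 regulators were called, against 1.76% of all genes. The call was lost without homeostatic Foxp3+ replicate 1 or 3 (adjusted p = 0.12 and 0.0917) or without homeostatic Foxp3- replicate 2 or 3 (0.0868 and 0.0788). DEC CD25+ arrays read 8.36, 8.99 and 8.39, against 8.09, 7.97, 6.98 and 7.23 on the DEC CD25- arrays. The difference of 1.01 ± 0.31 had an adjusted p of 0.183, and without DEC CD25- replicates 3 and 4 it was 0.55.

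Among the DEC regulators, 0 of 8 were called by limma, against 0.495% of all genes. An unadjusted p under 0.05 was found for 3, and ordinary least squares called 0. The median of all genes lay 0.16 higher in DEC CD25+ than in DEC CD25- cells, and at -0.05 after quantile normalization.

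The group order of Prdm1 had 4 steps larger than its residual SD of 0.44. DEC CD25- cells were lowest at 7.57 ± 0.55 (SD, n = 4). Homeostatic Foxp3- (8.34), DEC CD25+ (8.58) and LN CD103-Klrg1- cells (8.71) came next, a step of 0.78 above, and lay within the residual SD of each other. Homeostatic Foxp3+ cells followed at 9.93, then LP Tconv at 10.58 and LN CD103+Klrg1- cells at 10.83. LN CD103+Klrg1+ cells at 11.84 and LP Treg at 11.96 were at the top, and did not differ beyond the residual SD. Homeostatic Foxp3+ cells were 1.22 ± 0.37 above LN CD103-Klrg1- Treg, with an adjusted p of 0.0388. DEC CD25+ cells differed from the same Treg by -0.13 ± 0.37, with overlapping arrays.

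Bach2 ran the other way across the lymph node subsets and was lower in LP Treg than in CD103-Klrg1- cells. Bach2 read 8.38 and 9.65 on the LN CD103+Klrg1+ arrays and 10.49 and 10.15 on the CD103+Klrg1- arrays, against 10.74 and 11.38 on the CD103-Klrg1- arrays. The CD103+Klrg1+ pair was the lowest and the most scattered, and no 2 subsets overlapped. CD103+Klrg1+ cells differed from CD103-Klrg1- cells by -2.05 ± 0.50, with an adjusted p of 0.0388. This call was close to the threshold and held in 7 of 11 other settings and in 9 of the 23 fits that left out 1 array. Without CD103+Klrg1+ replicate 1 the difference was -1.41 with an adjusted p of 0.726, without CD103-Klrg1- replicate 2 the adjusted p was 0.474, and without CD103-Klrg1- replicate 1 it was 0.0911. The other losses came from leaving out single arrays of groups not compared, CD103+Klrg1- or either homeostatic group or DEC CD25+, with adjusted p from 0.0501 to 0.0546. The steps over CD103+Klrg1- cells were not called, at -1.31 ± 0.50 for CD103+Klrg1+ over CD103+Klrg1- and -0.74 ± 0.50 for CD103+Klrg1- over CD103-Klrg1-.

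In LP Treg, Bach2 had its lowest group mean, with arrays at 7.24 and 8.54, against 9.74 and 8.90 in LP Tconv. LP Treg differed from LN CD103-Klrg1- cells by -3.17 ± 0.50, with an adjusted p of 0.000824, and this call held in the 11 other settings and the 23 fits without 1 array. They differed from LN CD103+Klrg1- cells by -2.43 ± 0.50, with an adjusted p of 0.0111. That second call was lost without LP Treg replicate 1 (-1.78, adjusted p = 0.272), CD103+Klrg1- replicate 1 (0.135) or replicate 2 (0.0699). In the comparison with CD103+Klrg1- cells, 4 of 8 regulators were called, against 2.63% of all genes. Over LP Tconv the difference was -1.43 ± 0.50, with an adjusted p of 0.225. B cell and plasma cell markers did not all move one way between these groups. Ms4a1 averaged 6.23 in LP Treg, against 9.63 in CD103-Klrg1- and 10.36 in CD103+Klrg1+ cells. Blnk averaged 5.72, 6.97 and 7.66 in the same order, and Jchain 10.44, 6.43 and 6.45. The part of such cells in the Bach2 values was not tested.

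Homeostatic Foxp3+ arrays read 9.17, 9.50 and 9.50 for Bach2, against 8.64, 8.83 and 9.22 on homeostatic Foxp3- arrays, which overlapped them. DEC CD25+ arrays read 9.69, 9.83 and 9.60, against 9.37, 8.76, 7.60 and 8.66 on DEC CD25- arrays. The Foxp3+ and the CD25+ group were the higher of each pair in mean, by 0.49 ± 0.41 and 1.11 ± 0.38, and neither difference was called (adjusted p = 1 and 0.225). Without DEC CD25- replicates 3 and 4 the DEC difference was 0.64. The test of the difference between systems, LP minus DEC, gave -2.55 ± 0.63 for Bach2 with an adjusted p of 0.0695. No regulator was called by limma or by ordinary least squares in the 3 tests of this kind, where 0.775%, 1.01% and 0.336% of all genes were called for LP minus homeostatic, LP minus DEC and homeostatic minus DEC. An unadjusted p under 0.05 was found for 2, 2 and 3 regulators.

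**Figure D2:**
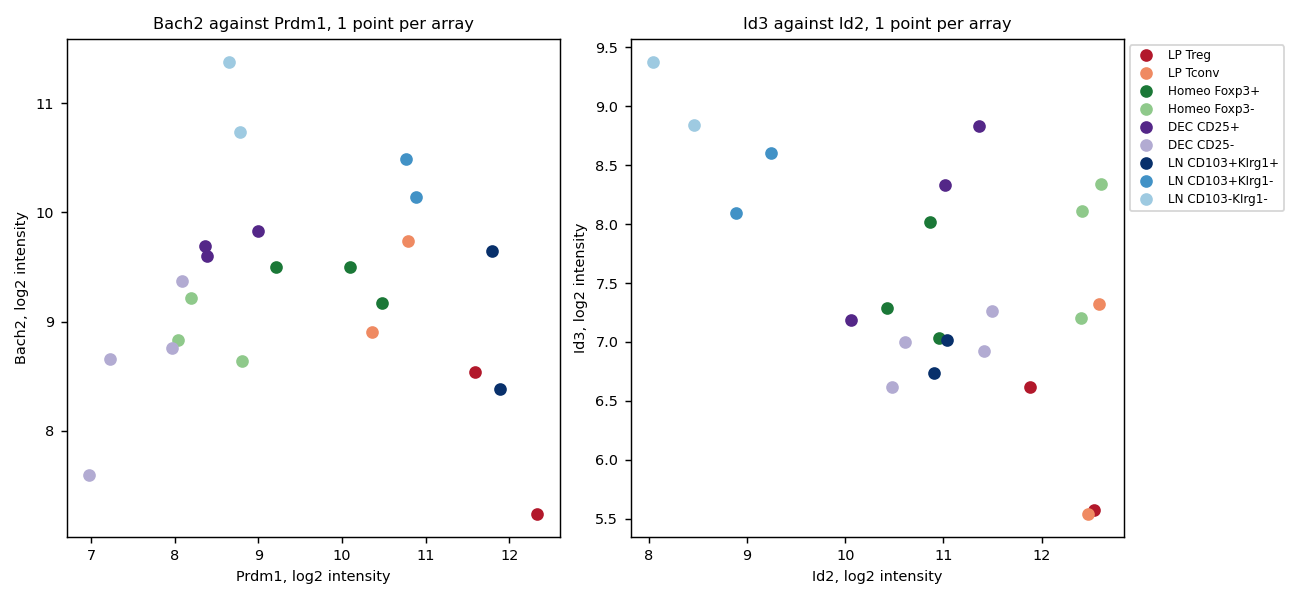
Bach2 against Prdm1 (left) and Id3 against Id2 (right), both axes in log2 intensity, 1 point per array and 1 colour per group. LP Treg and LN CD103+Klrg1+ arrays combine high Prdm1 with Bach2 of at most 9.65, LN CD103-Klrg1- arrays combine high Bach2 and Id3 with low Prdm1 and Id2, and the DEC arrays are low in Prdm1 without the highest Bach2.

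The second bright probe set of Bach2, 1437667_a_at, followed the first, 1436515_at, with a Pearson correlation of 0.76 over the 23 arrays, which share their libraries. It gave -3.01 ± 0.48 for LP Treg over LN CD103-Klrg1- cells (adjusted p = 0.000944 over 21612 probe sets) and -1.95 ± 0.48 for LN CD103+Klrg1+ over CD103-Klrg1- cells (adjusted p = 0.0448). The probe sets differed in the DEC groups, where 1437667_a_at read 8.35, 8.38 and 8.53 on CD25+ arrays, against 7.73, 7.15, 6.85 and 5.82 on CD25- arrays. DEC CD25+ cells differed from LN CD103-Klrg1- cells by -2.59 ± 0.44 on this probe set (adjusted p = 0.000585), and by -1.35 ± 0.46 on 1436515_at (adjusted p = 0.0577). For LP minus DEC, 1437667_a_at gave -3.24 ± 0.61 with an adjusted p of 0.0126, which 1436515_at did not reach. The third probe set, 1445460_at, stayed between 5.83 and 7.22 on all arrays.

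**Figure D3:**
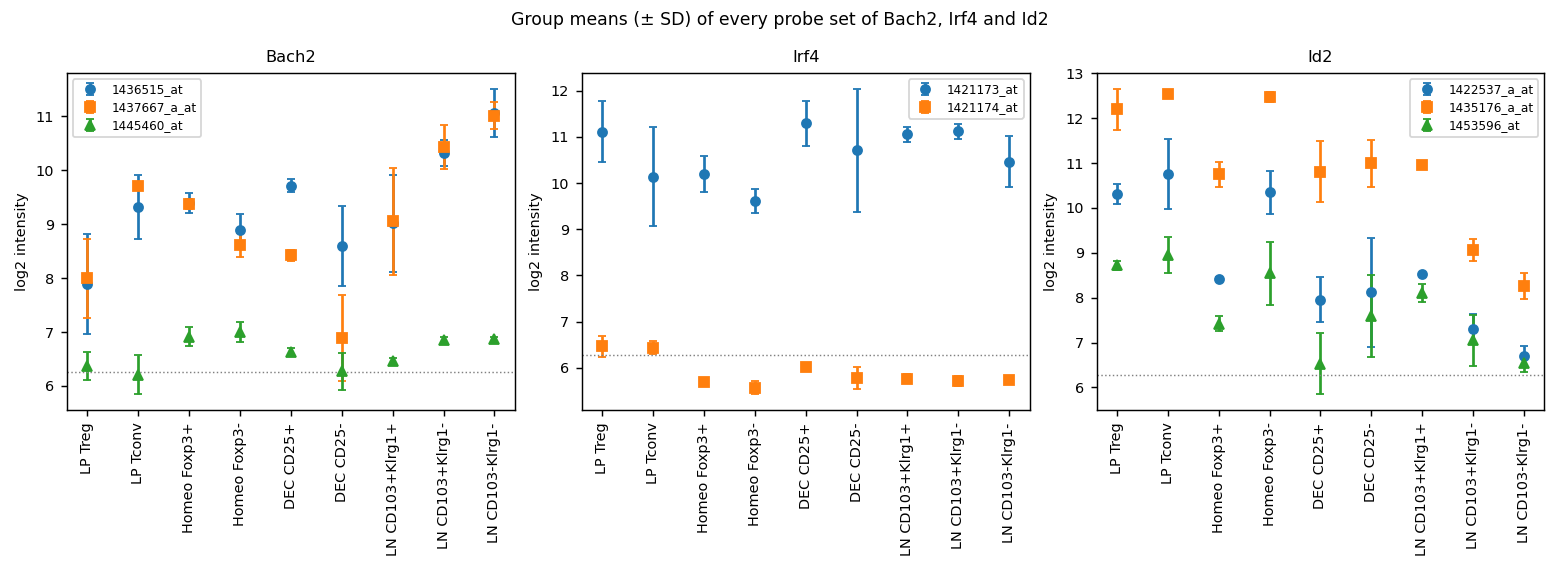
Group means ± SD in log2 intensity (vertical axes) of every probe set of Bach2, Irf4 and Id2, with the filter at 6.27 as a dotted line. The pair of brighter Bach2 probe sets lie together except in the DEC groups, and 1 probe set each of Bach2 and Irf4 stays near the filter. The 3 Id2 probe sets differ in level and in where the DEC groups stand among the others.

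Id2 and Id3 are shown with their promoters because they moved in opposite directions in the same Treg. Id2 starts on the minus strand within chr12:25096043-25096342 and Id3 on the plus strand within chr4:136143572-136143871.
Id2: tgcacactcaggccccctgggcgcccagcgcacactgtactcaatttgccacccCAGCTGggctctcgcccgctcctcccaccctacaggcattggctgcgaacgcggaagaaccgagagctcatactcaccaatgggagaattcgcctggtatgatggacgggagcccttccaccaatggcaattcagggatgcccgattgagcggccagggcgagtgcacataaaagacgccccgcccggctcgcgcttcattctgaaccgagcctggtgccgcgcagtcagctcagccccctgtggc
Id3: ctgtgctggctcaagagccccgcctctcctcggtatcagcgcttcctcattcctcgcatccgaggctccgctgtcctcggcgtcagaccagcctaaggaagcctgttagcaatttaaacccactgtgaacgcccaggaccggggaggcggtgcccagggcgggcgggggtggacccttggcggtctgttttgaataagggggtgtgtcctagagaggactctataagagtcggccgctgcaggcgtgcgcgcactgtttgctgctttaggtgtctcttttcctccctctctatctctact

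The Id2 window held 1 E-box, in capitals at -196 to -191, and the Id3 window held none of the motifs searched. The remaining motif, CACGTG, is held by 7.15% of promoters.

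Id2 rose and Id3 fell from one end of the lymph node split to the other. Id2 read 11.03 and 10.90 on the LN CD103+Klrg1+ arrays and 9.24 and 8.89 on the CD103+Klrg1- arrays, against 8.04 and 8.46 on the CD103-Klrg1- arrays. The 3 subsets did not overlap. CD103+Klrg1+ cells exceeded CD103-Klrg1- cells by 2.72 ± 0.38, or 6.57-fold, with an adjusted p of 0.000315, and kept this call in the 11 other settings and the 23 fits without 1 array. They exceeded CD103+Klrg1- cells by 1.90 ± 0.38, with an adjusted p of 0.0252. That was the 1 regulator called between these subsets, against 0.647% of all genes. The call was lost with the mean of the 3 probe sets (1.40, adjusted p = 0.228) and by ordinary least squares (adjusted p = 0.0649). It was also lost without CD103+Klrg1+ replicate 1 (0.227) or 2 (0.12) and without CD103+Klrg1- replicate 1 (0.125) or 2 (0.32).

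Id3 read 7.02 and 6.73 on the CD103+Klrg1+ arrays and 8.60 and 8.09 on the CD103+Klrg1- arrays, against 9.38 and 8.84 on the CD103-Klrg1- arrays. The order was the reverse of that of Id2, again without overlap. CD103+Klrg1+ cells differed from CD103-Klrg1- cells by -2.23 ± 0.56, with an adjusted p of 0.0465. This call held in 8 of 11 other settings and in 8 of 23 fits without 1 array. Adjusted p were 0.397 and 0.151 without CD103-Klrg1- replicates 1 and 2, and 0.213 and 0.287 without CD103+Klrg1+ replicates 1 and 2. Leaving out single arrays of groups not compared gave 0.0501 to 0.0638 in the other fits that lost it, with arrays of CD103+Klrg1-, homeostatic Foxp3+, homeostatic Foxp3-, DEC CD25+ and DEC CD25-.

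In the gut, high Id2 and low Id3 were shared by Treg and Tconv. Id2 read 12.53 and 11.88 in LP Treg, against 12.48 and 12.59 in LP Tconv. Id3 read 5.58 and 6.62 in LP Treg, against 5.54 and 7.32 in LP Tconv, and so lay on both sides of the filter in both. The differences of -0.32 ± 0.38 and -0.33 ± 0.56 were not called, with overlapping arrays. Against LN CD103-Klrg1- cells, LP Treg were higher in Id2 by 3.96 ± 0.38, or 15.5-fold, with an adjusted p of 5.77e-06. Against LN CD103+Klrg1- cells, Id2 was higher by 3.14 ± 0.38, with an adjusted p of 0.000109. Both Id2 calls held in the 11 other settings and the 23 fits without 1 array. The log2 of the summed intensity of the CD8 T and NK cell markers, cell types that also use Id2, ran from 12.07 to 12.53 in LP Treg, against 8.76 to 9.13 over the arrays of CD103+Klrg1- and CD103-Klrg1- cells. Above the filter lay 2 of the 6 in LP Treg and 3 in each of these lymph node subsets. Against CD103-Klrg1- cells 1 of the 5 tested was called higher, the granzyme gene Gzma, at 12.22 ± 0.33 in LP Treg and 6.15 ± 0.41 in CD103-Klrg1- cells (SD, n = 2 each). Cd8b1, Ncr1, Klra8 and Eomes averaged below the filter in LP Treg. Their part in the Id2 difference was not tested. Id3 was lower in LP Treg than in LN CD103-Klrg1- cells by an estimated 8.06-fold (log2 difference -3.01 ± 0.56, adjusted p = 0.00317). The LP mean lay under the filter, which limits the fold. It was lower than in CD103+Klrg1- cells by an estimated 4.75-fold, with the same limit (-2.25 ± 0.56, adjusted p = 0.0397). Without LP Treg replicate 1 both calls were lost, at -2.49 with an adjusted p of 0.0896 and at an adjusted p of 0.453. The second was also lost without CD103+Klrg1- replicate 1 or 2 (0.323 and 0.143) and, at 0.0506 to 0.0538, without single arrays of LN CD103+Klrg1+, LN CD103-Klrg1-, homeostatic or DEC CD25+ cells. It was lost with no filter (0.0512) and by ordinary least squares (0.0861) as well. Over LN CD103+Klrg1+ cells, Id2 in LP Treg differed by 1.24 ± 0.38 (adjusted p = 0.142), and Id3 by -0.78 ± 0.56 (adjusted p = 0.735).

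In the homeostatic system, Id2 separated the pair. Homeostatic Foxp3+ arrays read 10.43, 10.96 and 10.87, against 12.41, 12.40 and 12.61 on homeostatic Foxp3- arrays. Every Foxp3+ array lay below every Foxp3- array. The difference of -1.73 ± 0.31 was called with an adjusted p of 0.00447, in the 11 other settings and in the 23 fits without 1 array. The markers of CD8 T and NK cells averaged 7.02 to 7.79 on the homeostatic Foxp3+ arrays, against 7.69 to 7.99 on the homeostatic Foxp3- arrays. The log2 of their summed intensity ran from 10.95 to 11.97 in homeostatic Foxp3+ cells, against 12.55 to 12.68 in homeostatic Foxp3- cells. In each group 4 of the 6 markers on the array lay above the filter, and 1 of the 5 tested was called lower, again Gzma. The part of such cells in the Id2 difference was not tested. DEC CD25+ arrays read 10.06, 11.36 and 11.02 for Id2, against 11.41, 11.50, 10.48 and 10.60 on DEC CD25- arrays, with overlap and a difference of -0.18 ± 0.29. Without DEC CD25- replicates 3 and 4 it was -0.64, with an adjusted p of 0.735. For homeostatic minus DEC, the test over all arrays gave -1.54 ± 0.43, with an adjusted p of 0.191.

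Id3 was not called in either transfer pair. It read 7.29, 7.04 and 8.02 on homeostatic Foxp3+ arrays, against 8.11, 7.20 and 8.34 on homeostatic Foxp3- arrays. In the DEC system it read 7.19, 8.83 and 8.33 on CD25+ arrays, against 6.92, 7.26, 6.62 and 7.00 on CD25- arrays. Both pairs of groups overlapped, with differences of -0.44 ± 0.46 and 1.17 ± 0.43 and adjusted p of 1 and 0.251. Between arrays of the same number, Foxp3+ was the lower in 3 of 3 homeostatic pairs and CD25+ the higher in 3 of 3 DEC pairs. With replicate number as a block the adjusted p were 0.617 and 0.0657. Without DEC CD25- replicates 3 and 4 the DEC difference was 1.03.

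The other Id2 probe sets, 1422537_a_at and 1453596_at, correlated with the first, 1435176_a_at, at a Pearson r of 0.89 and 0.71 over the 23 arrays. LP Treg over LN CD103-Klrg1- cells gave 3.61 ± 0.61 by 1422537_a_at (adjusted p = 0.00156) and 2.19 ± 0.55 by 1453596_at (adjusted p = 0.0262). Smaller differences in the same direction, 1.84 ± 0.61 and 1.58 ± 0.55, stood between LN CD103+Klrg1+ and CD103-Klrg1- cells and were not called (adjusted p = 0.238 and 0.3). Homeostatic Foxp3+ over Foxp3- cells gave -1.94 ± 0.50 and -1.13 ± 0.45, with adjusted p of 0.0724 and 0.487. The probe sets differed in the DEC groups. DEC CD25+ over CD25- cells gave -0.16 ± 0.47 and -1.06 ± 0.42 (adjusted p = 0.892 and 0.261). For homeostatic minus DEC the values were -1.78 ± 0.69 and -0.07 ± 0.62 (adjusted p = 0.53 and 0.986).

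Irf4 and Batf, the partners at composite elements, differed less among the groups. Irf4 read 11.58 and 10.64 in LP Treg, against 10.89 and 9.37 in LP Tconv. In the lymph node it read 11.17 and 10.93 in CD103+Klrg1+ cells and 11.24 and 11.00 in CD103+Klrg1- cells, against 10.85 and 10.08 in CD103-Klrg1- cells. The largest group mean was 11.29 ± 0.49 in DEC CD25+ cells (SD, n = 3) and the smallest 9.61 ± 0.26 in homeostatic Foxp3- cells (SD, n = 3). No step in this order exceeded the residual SD of 0.77. Irf4 was called in none of the 11 comparisons between groups, and its differences ran from -0.27 ± 0.63 for homeostatic Foxp3+ over LN CD103-Klrg1- cells to 0.98 ± 0.70 for LP Treg over LP Tconv. DEC CD25- replicate 3 read 8.80, against 10.80 to 11.69 on the other DEC CD25- arrays. Its second probe set, 1421174_at, lay between 5.41 and 6.62 on all arrays and correlated with the first at 0.25. That dim probe set was called higher in LP Treg than in LN CD103-Klrg1- cells, by 0.72 ± 0.18 (adjusted p = 0.0267). The bright probe set gave a difference of 0.64 ± 0.70 there, with overlapping arrays and no call.

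Batf read 9.09 and 9.33 in LP Treg, against 8.34 and 9.15 in LP Tconv. It read 9.33 and 8.37 in LN CD103+Klrg1+ cells and 8.58 and 7.92 in CD103+Klrg1- cells, against 8.01 and 7.61 in CD103-Klrg1- cells. The CD103-Klrg1- group had the lowest mean of the 9, and homeostatic Foxp3- cells the highest at 9.49 ± 0.19 (SD, n = 3). Homeostatic Foxp3+ arrays, at 9.27, 9.10 and 9.34, were above both CD103-Klrg1- arrays, and this difference of 1.43 ± 0.39 was the 1 call for Batf, with an adjusted p of 0.0196. Between LP Treg and LN CD103-Klrg1- cells it was 1.40 ± 0.42, with an adjusted p of 0.073. Between LN CD103+Klrg1+ and CD103-Klrg1- cells it was 1.05 ± 0.42, with an adjusted p of 0.471.

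Bhlhe40 was low in the lymph node Treg subsets and higher in the gut and transfer groups. It read 7.98 and 7.79 on LN CD103+Klrg1+ arrays and 8.81 and 8.32 on CD103+Klrg1- arrays, against 8.61 and 8.23 on CD103-Klrg1- arrays. It read 12.08 and 11.00 in LP Treg, against 12.80 and 11.91 in LP Tconv. All 6 lymph node arrays lay below each array of the other groups. LP Treg exceeded LN CD103+Klrg1+ cells by 3.66 ± 0.61, or 12.6-fold, with an adjusted p of 0.00206. They exceeded CD103+Klrg1- cells by 2.97 ± 0.61 (adjusted p = 0.0104) and CD103-Klrg1- cells by 3.12 ± 0.61 (adjusted p = 0.00423). Without LP Treg replicate 1 the calls were lost, with adjusted p of 0.0638, 0.221 and 0.104 and log2 differences of 3.12, 2.44 and 2.59. The call against CD103+Klrg1- cells was also lost without their replicate 1 (0.0584) or 2 (0.138), and the call against CD103-Klrg1- cells without their replicate 2 (0.0644). Against LN CD103+Klrg1+ cells, 2 of the 8 regulators were called, with 2.05% of all genes.

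No difference in Bhlhe40 among the lymph node subsets was called, and its residual SD was 0.67. The differences were -0.68 ± 0.61 for CD103+Klrg1+ over CD103+Klrg1- cells, without overlap, -0.53 ± 0.61 for CD103+Klrg1+ over CD103-Klrg1- cells and 0.15 ± 0.61 for CD103+Klrg1- over CD103-Klrg1- cells. Homeostatic Foxp3+ arrays read 9.73, 11.85 and 9.77, against 11.32, 12.31 and 10.81 on homeostatic Foxp3- arrays. The pairs overlapped, but each Foxp3+ array lay below the Foxp3- array of the same number. The difference of -1.03 ± 0.50 had an adjusted p of 0.677, and 0.0198 with replicate number as a block, a fit in which 3.84% of all genes were called. DEC CD25+ arrays read 12.96, 12.69 and 12.50, against 12.60, 12.31, 11.41 and 11.90 on DEC CD25- arrays, with a difference of 0.66 ± 0.46 that was not called, and of 0.26 without DEC CD25- replicates 3 and 4. For homeostatic minus DEC, Bhlhe40 gave -1.70 ± 0.68 with an adjusted p of 0.495, and -1.64 with an adjusted p of 0.0313 under the block.

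Gfi1 was highest in the gut, in Treg and Tconv alike. It read 9.78 and 9.65 in LP Treg, against 9.86 and 9.39 in LP Tconv, with a difference of 0.09 ± 0.42. LN CD103+Klrg1+ arrays read 8.04 and 7.40 and CD103+Klrg1- arrays 8.25 and 8.11, against 8.52 and 8.03 on CD103-Klrg1- arrays. The lymph node subsets lay close together and below both gut groups. LP Treg exceeded LN CD103+Klrg1+ cells by 2.00 ± 0.42, with an adjusted p of 0.0133. That call was lost without LP Treg replicate 1 (0.151) or 2 (0.0656) or without CD103+Klrg1+ replicate 2 (1.68, adjusted p = 0.24). LP Treg differed from CD103+Klrg1- and CD103-Klrg1- cells by 1.54 ± 0.42 and 1.44 ± 0.42, with adjusted p of 0.0616 and 0.0601. The lowest group was homeostatic Foxp3+, at 7.51, 6.35 and 7.43, against 7.99, 7.48 and 7.63 in homeostatic Foxp3- cells, with overlap. DEC CD25+ cells averaged 8.78 ± 0.37 (SD, n = 3), against 8.42 ± 0.60 in DEC CD25- cells (SD, n = 4).

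**Figure D4:**
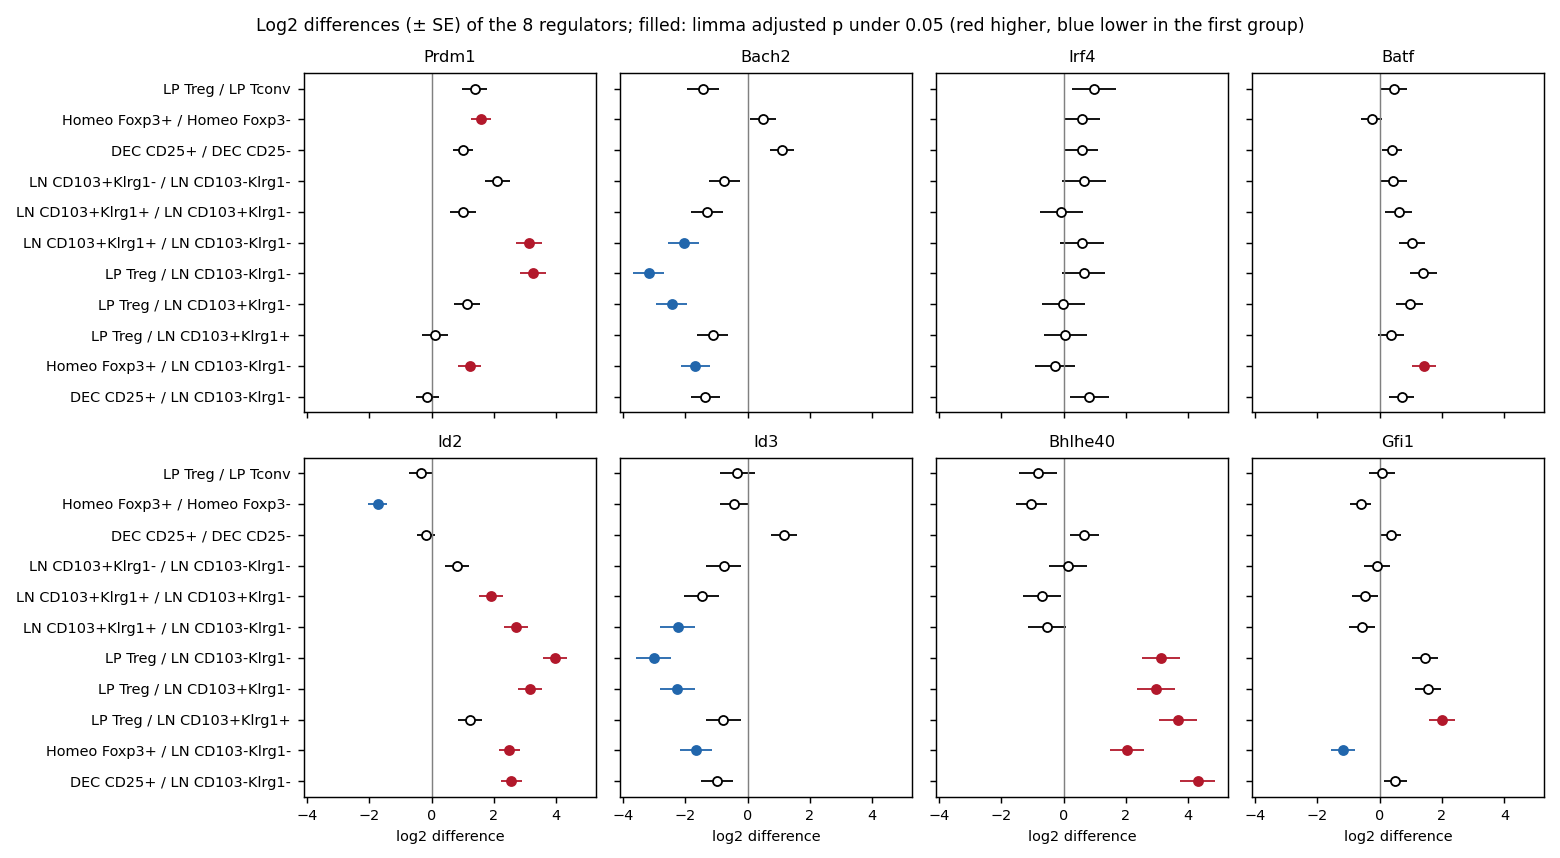
Log2 differences ± SE (horizontal axes) of the 8 regulators in the 11 comparisons between groups, each named as first group / second group. Filled points passed limma's adjusted p of 0.05, red where higher and blue where lower in the first group. In LP Treg over LN CD103-Klrg1- cells, Prdm1, Id2 and Bhlhe40 are filled to the right and Bach2 and Id3 to the left, while Irf4 has no filled point.

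The cells that gained Foxp3 or CD25 after transfer were also set against LN CD103-Klrg1- Treg. Strain, transgenic receptor, host, site and sort differ together in these comparisons and cannot be told apart. The DEC arrays differ in Xist as well, at 11.85 to 13.25 against 6.47 to 7.67 on the other arrays, though all are labelled male. What goes with Xist cannot be told apart from the DEC system either. In homeostatic Foxp3+ cells 7 of 8 regulators were called, where 13.4% of all genes were. Prdm1, Batf, Bhlhe40 and Id2 were higher, the last by 2.50 ± 0.35 (adjusted p = 0.000111) and Bhlhe40 by 2.03 ± 0.55 (adjusted p = 0.021). The Id2 probe sets 1422537_a_at and 1453596_at gave 1.71 ± 0.56 and 0.89 ± 0.51 and were not called (adjusted p = 0.0533 and 0.284). Bach2 was lower by a log2 difference of -1.67 ± 0.46 (adjusted p = 0.0218), Id3 by -1.66 ± 0.52 (adjusted p = 0.0403) and Gfi1 by -1.18 ± 0.38 (adjusted p = 0.0482). Without CD103-Klrg1- replicate 2, Id2 was the 1 call left, and the adjusted p of the other 6 were 0.116 to 0.233. Without CD103-Klrg1- replicate 1 the same 6 calls were lost, with adjusted p from 0.0534 to 0.318. Losses without a homeostatic Foxp3+ array were Prdm1, Bach2 and Id3 for replicate 1, Id3, Bhlhe40 (1.33) and Gfi1 (-0.81) for replicate 2, and Prdm1, Batf and Gfi1 for replicate 3. The Gfi1 call held in 8 of the 23 fits without 1 array and was also lost with no filter and with every probe set tested, at adjusted p of 0.057 and 0.0514. Ordinary least squares lost the calls of Prdm1, Id3 and Gfi1, at 0.0626, 0.0704 and 0.0764.

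In DEC CD25+ cells 2 of 8 regulators were called, where 14.6% of all genes were. Id2 was higher by 2.56 ± 0.35 (adjusted p = 8.38e-05) and Bhlhe40 by 4.30 ± 0.55, or 19.7-fold (adjusted p = 5.08e-05). Both calls held in the 11 other settings and the 23 fits without 1 array. The Id2 call rests on 1435176_a_at. The other Id2 probe sets, 1422537_a_at and 1453596_at, gave 1.26 ± 0.56 and -0.01 ± 0.51. Neither was called (adjusted p = 0.144 and 0.997). Prdm1 differed by -0.13, Bach2 by -1.35 (adjusted p = 0.0577) and Id3 by -0.99 ± 0.52. The 3 comparisons share the CD103-Klrg1- arrays.

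Myeloid and dendritic markers differed between these groups too. Their mean ran from 7.92 to 8.84 on homeostatic Foxp3+ arrays and from 7.54 to 8.29 on DEC CD25+ arrays, against 6.86 to 7.15 on LN CD103-Klrg1- arrays. The log2 of their summed intensity ran from 13.74 to 14.26, from 13.31 to 13.66 and, in CD103-Klrg1- cells, from 13.44 to 13.52. Of the 13 markers, 12, 12 and 7 lay above the filter in these groups, and Itgam, which encodes CD11b, lay below it in all 9. Against CD103-Klrg1- cells, 6 of the 12 tested were called higher in homeostatic Foxp3+ and 3 in DEC CD25+ cells. Of all genes tested, 13.4% and 14.6% were called in these comparisons, in either direction. CD8 T and NK cell markers differed as well. The log2 of their summed intensity ran from 10.95 to 11.97 in homeostatic Foxp3+ and from 8.53 to 8.66 in DEC CD25+ cells, against 8.93 to 9.13 in CD103-Klrg1- cells, with 4, 1 and 3 of the 6 above the filter. Eomes averaged 10.44 ± 0.20 in homeostatic Foxp3+ (SD, n = 3) and 7.27 ± 0.23 in CD103-Klrg1- cells (SD, n = 2). Gzma averaged 10.01 ± 0.97 in homeostatic Foxp3+ and 6.15 ± 0.41 in CD103-Klrg1- cells. Both were called higher, 2 of the 5 tested. None was called in DEC CD25+ cells. The part of either marker list in the values of the regulators was not tested.

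Genes near these regulators in function were taken as lists. For scale, 2.1% of all genes were called in LN CD103+Klrg1+ and 4.55% in LP Treg over CD103-Klrg1- cells, in either direction. In the LP, homeostatic and DEC pairs the share was 2.7%, 1.76% and 0.495%. Of 22 effector Treg genes tested, 10 were called higher and 0 lower in LN CD103+Klrg1+ over CD103-Klrg1- cells, with a median difference of 1.60 against -0.01 for all genes. Gzmb, a cytotoxic granule protease, rose by 5.48 ± 0.31, and the chemokine receptor gene Ccr2 by 3.92 ± 0.38. Klrg1 differed by 6.55 ± 0.41. The cells were sorted by Klrg1 and by CD103, which Itgae encodes, and both genes are among the 22. Counts and medians of the list against CD103-Klrg1- cells are therefore not independent of the sort. In LP Treg over CD103-Klrg1- cells, 16 of the 22 were called higher and 0 lower, with a median of 2.08 against 0.05 for all genes. Il10, a suppressive cytokine, rose there by 6.91 ± 0.50. Between LP Treg and LP Tconv, where none of the 8 regulators was called, 12 of the 22 were called higher and 0 lower, with a median of 1.58. The homeostatic and the DEC pair had 7 called higher each and 0 lower, with medians of 0.72 and 0.48.

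Of 14 genes of central Treg and naive T cells, 6 were called lower and 0 higher in LP Treg over LN CD103-Klrg1- cells, with a median of -1.40. Among them Bcl2, a survival gene, differed by -3.15 ± 0.51 and Foxp1, a transcription factor of quiescent T cells, by -2.11 ± 0.34. In LN CD103+Klrg1+ over CD103-Klrg1- cells 2 were called lower, Bcl2 (-2.73 ± 0.51) and Igfbp4 (-1.77 ± 0.38), and Il7r, the interleukin-7 receptor gene, was called higher (1.07 ± 0.23).

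The E protein genes Tcf3, Tcf4 and Tcf12, whose products Id2 and Id3 bind, were called in none of the 11 comparisons. Of 7 cofactor genes of Blimp-1 and Gfi1, 1 was called in 1 comparison, Hdac1 in homeostatic Foxp3+ over LN CD103-Klrg1- cells (0.82 ± 0.25, adjusted p = 0.0371). The 5 tested paralogs, among them Bach1 and Irf8, were called in none. Of 9 AP-1 and small Maf genes, partners of Batf and Bach2, 2 were called higher in LP Treg over LN CD103-Klrg1- cells, Fosl2 by 3.31 ± 0.76 and Mafg by 1.71 ± 0.40. In DEC CD25+ over CD103-Klrg1- cells 6 of the 9 were called higher, where 14.6% of all genes were called in either direction. Their median was 2.86, against 0.01 for all genes. None of the 9 was called in homeostatic Foxp3+ over CD103-Klrg1- cells, where 13.4% of all genes were. Of 14 genes induced by the T cell receptor, 5 were called higher and 2 lower in DEC CD25+ cells, and 0 higher and 4 lower in homeostatic Foxp3+ cells, against the same Treg.

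Over the 9 group means, Bach2 and Id3 correlated at a Pearson r of 0.86, Bach2 and Id2 at -0.83, and Id2 and Id3 at -0.78. Prdm1 and Bach2 correlated at -0.24. These values describe 9 points that share tissues and strains. Among all genes tested, the group means closest to those of Prdm1 were those of Cpped1 (0.98), Il10ra (0.97), Sacm1l (0.97), M6pr (0.97) and Ikzf3 (0.96), and the most opposite those of Sptan1 (-0.95), Cd9 (-0.95) and Carmil3 (-0.94). Cd2ap was closest to Bach2 (0.96) and among the 5 closest to Id3 (0.91), and Tonsl was the most opposite to both (-0.89 and -0.91). Serinc2 was closest to Id2 (0.95), Wdr53 to Id3 (0.95), Zfp862-ps to Irf4 (0.97), Stard10 to Batf (0.97), Gpank1 to Bhlhe40 (0.97) and Itpr2 to Gfi1 (0.98).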

How the data were processed

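Intensities were deposited on a linear scale, from Affymetrix M430v2 arrays that the authors preprocessed with RMA (per the submitters' processing notes) in GenePattern (per the series text), in versions not given in the sources used here. Per the labels' protocols, Trizol RNA went through 2 rounds of MessageAmp amplification. No pseudocount was added before log2. Array medians differed, between 63.7 and 81.1, and the number of arrays limits the precision. Probe sets were named by the platform annotation, 34945 of 45101 by 1 symbol and 932 by several, which were not used. One probe set per gene, the brightest over all arrays, stood for the gene, and a gene was tested if any group mean passed the filter, set at the table median of 77.0 intensity units. A mean for each of 9 groups was fitted to 23 arrays with limma 3.58.1 in R 4.3.3 (14 residual degrees of freedom, 3.48 from the prior), two-sided, with Benjamini-Hochberg adjustment. Where the lower mean lay under the filter, this is stated beside the fold, which is an estimate from weak signal.

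The members and gene lists were chosen with earlier results of these data known. Named genes are the 8 members with their probe sets, up to 4 genes of smallest p per list and comparison, and the genes whose group means were most and least like each member's; counts under 5 outside that rule, and markers of other cell types, were named after their values were seen. Listed genes without a probe set of their own were not analysed here. Alternatives were 2 normalizations, filters, probe set rules, array weights, ordinary least squares, the compared arrays alone, a replicate block, leaving out DEC CD25- replicates 3 and 4, and leaving out each array. In residuals from group means, arrays of the same number correlated at 0.49 to 0.66 in the homeostatic and 0.38 to 0.51 in the DEC pairs. The numbers were therefore taken to pair these samples, from the data and not from the labels. The main fit did not use this pairing, so its adjusted p for these pairs ignore it. Among the fits, the pairing entered only through the replicate block. The fits were tested on simulated data. Promoters came from RefSeq (GRCm38.p6) and matched 7 of the 8 members; Python 3.11.15, pandas 2.3.3 and matplotlib 3.10.9 served for tables and plots.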

Additional observations from a re-analysis of the deposited data

How the results depend on the processing

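Each of the 112 differences of a regulator was recomputed under 11 other settings and with each of the 23 arrays left out, and none that was called changed sign. In LP Treg over LP Tconv, 1 regulator (Prdm1) in place of 0 was called with quantile or cyclic loess normalization, with a replicate block, and without both DEC CD25- replicates 3 and 4. In LN CD103+Klrg1- over CD103-Klrg1- cells it was 1 in place of 0 with those 4 settings and with the stricter filter, the mean of probe sets, the compared arrays alone and array weights. In LN CD103+Klrg1+ over CD103+Klrg1- cells 0 in place of 1 was called with the mean of probe sets and by ordinary least squares; limma had 4 at an unadjusted p under 0.05 there. In CD103+Klrg1+ over CD103-Klrg1- cells 2 in place of 4 were called with no filter and by ordinary least squares. Array weights gave 7 in place of 4 in LP Treg over CD103+Klrg1- cells and 4 in place of 2 in DEC CD25+ over CD103-Klrg1- cells. Ordinary least squares gave 4 in place of 7 in homeostatic Foxp3+ over CD103-Klrg1- cells. The test of LP minus DEC gave 1 in place of 0 with the mean of probe sets (Bach2, -2.00, adjusted p = 0.0215), and that of homeostatic minus DEC gave 1 with array weights and 1 with the replicate block. The cause was not tested.

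With 1 array left out, 0 regulators were called in the LP pair and in the DEC pair, 1 to 2 in the homeostatic pair, 0 to 1 in CD103+Klrg1- over CD103-Klrg1-, 0 to 1 in CD103+Klrg1+ over CD103+Klrg1- and 2 to 4 in CD103+Klrg1+ over CD103-Klrg1-. LP Treg had 3 to 7 over CD103-Klrg1-, 1 to 5 over CD103+Klrg1- and 0 to 2 over CD103+Klrg1+ cells. Against CD103-Klrg1- cells, homeostatic Foxp3+ had 1 to 7 and DEC CD25+ 2 to 3. The tests of a difference between systems had 0 to 1, and the F test 7 to 8. The F test was not recomputed for the compared arrays alone. Beyond the calls named above and those of Bhlhe40 beside its results, the replicate block ended the Bach2 call in CD103+Klrg1+ over CD103-Klrg1- cells (adjusted p = 0.055) and added Prdm1 in LP Treg over CD103+Klrg1- cells (0.0237), Batf in LP Treg over CD103-Klrg1- cells (0.0197), Gfi1 in LP Treg over both (0.00868 and 0.00829) and Id3 in DEC CD25+ over CD103-Klrg1- cells (0.0371); it changed no other call of a regulator. The labels give no shared pool for LN or LP arrays; same-number residual correlations were 0.37 to 0.72 in the LN pairs and -0.07 in the LP pair.

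Signal close to the filter limits Id3 in the gut and the dim probe sets of Bach2 and Irf4. DEC CD25- replicates 3 and 4 are limited by low correlation with their own group and low array medians, and replicate 3 by its Gapdh gap of 6.59. Groups of 2 arrays let single arrays decide several calls.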
